A study of Mus musculus with 12 samples.

Results

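The 10 genes described here carry the IL4 signal into a B cell and its transcriptional output: the receptor chains Il4ra and Il2rg, the kinases Jak1 and Jak3, the transcription factor Stat6, the feedback inhibitors Cish, Socs1 and Socs3, and the IL4-induced genes Fcer2a, which encodes CD23, and Il4i1. They are 10 of the 12699 genes in the deposited table, and all 10 passed the filter on low values in both cultures. The genes were chosen by their roles and with the CTCFfl/fl against CTCFfl/+ differences of both cultures already known. The values behind the choice are therefore given as a description, with no p-value for any of the 10.

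IL4 binds the IL4Rα chain, which in lymphocytes pairs with the common γ chain shared with the receptors for IL2, IL7, IL9, IL15 and IL21. JAK1, bound to IL4Rα, and JAK3, bound to the common γ chain, then phosphorylate STAT6, which dimerizes, enters the nucleus and binds palindromic sites in its target genes. In B cells these targets include CD23, the low-affinity receptor for IgE, and IL4Rα itself. CISH, SOCS1 and SOCS3 are made in response to cytokines and switch cytokine receptor signalling off.

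RNA was sequenced from splenic B cells of 8-12-week-old mice, activated in culture for 48 h and sorted for hCD2, the reporter that marks expression of the AID-CRE transgene. CTCF is a DNA-binding protein that shapes chromatin loops, and the study asked what its loss does to activated B cells. CTCFfl/fl; AID-CRETG/+ cells, in which both CTCF alleles can be deleted, were compared with CTCFfl/+; AID-CRETG/+ cells, in which 1 allele can be, so both genotypes carried the transgene and at least 1 floxed allele. B cells were stimulated either with LPS (50 µg/ml) and IL4 (5 ng/ml) or by co-culture with T cells activated with anti-CD3 (5 µg/ml) and anti-CD28 (1 µg/ml), with 3 libraries for each genotype and culture. These doses are those of the sample labels, and the methods of the study give other doses of LPS, IL4 and anti-CD28. IL4 was thus added to the LPS/IL4 cultures only, and each library came from pooled cultures of 2-3 mice. The study calls the libraries independent replicates.

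The libraries held 6934344 to 11227004 reads in CD3/CD28 and 23469188 to 28130440 in LPS/IL4 cultures, as recovered from the normalized CPM (counts scaled to the size of a library). Ctcf RNA was lower in every CTCFfl/fl library. It was at 126 to 138 CPM in CTCFfl/+ and 72.0 to 76.3 CPM in CTCFfl/fl cells of the CD3/CD28 cultures, and at 134 to 146 against 63.1 to 78.3 CPM with LPS/IL4. The reads cover the whole gene, so these levels do not give the share of deleted alleles. B cell markers were abundant in all 12 libraries, with summed levels of 10226 to 11413 CPM in CTCFfl/+ and 10699 to 11163 CPM in CTCFfl/fl cells of the CD3/CD28 cultures. Of the 19 T cell markers listed, Cd3d, Cd3e, Cd4, Trac, Trbc1 and Trbc2 reached at most 0.800 CPM in a co-culture library and 3.05 CPM in an LPS/IL4 library. The share of T cell RNA in a library was not measured. Of the other T cell markers, Cd3g reached 3.53 CPM, Thy1 44.8 CPM, Ctla4 70.1 CPM and Lck 122 CPM in a co-culture library. Each culture was processed as a separate batch, and the mean of 98.8% of 9905 genes was within 0.1 log2 units in both cultures, so no level is compared between them. Whether the values were adjusted for batch before deposit is not given in the sources used here, and such a step would bear on the recovered reads and on any difference between the cultures.

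The promoters of the 10 genes were read first for the palindromes that STAT proteins bind. RefSeq start sites on GRCm38.p6 gave 12 windows, from 250 bases before to 50 after each start, for 10 of 10 genes. Both strands were searched for TTCNNNNGAA, a wider spacing that STAT6 binds, and for TTCNNNGAA, a narrower spacing that other STAT proteins bind. A site of one spacing cannot be one of the other, but no site was assigned to a single STAT protein by its spacing. The wider palindrome was found in 1 gene, Fcer2a, and in 6.95% of all 32851 windows, and the narrower one in 2 genes, Cish and Socs3, and in 8.30% of all windows. The windows that hold one are shown, 5′ to 3′ along the gene, with the palindrome in capitals. The Fcer2a window, at chr8:3690812-3691111 on the minus strand, belongs to the middle one of 3 annotated starts, and its site TTCCCAAGAA begins 168 bases before that start. The Cish window, at chr9:107296409-107296708 on the plus strand, holds 2 sites, of which the first begins at the start itself. The Socs3 window, at chr11:117969317-117969616 on the minus strand, holds a site that begins 154 bases before the start.
Fcer2a: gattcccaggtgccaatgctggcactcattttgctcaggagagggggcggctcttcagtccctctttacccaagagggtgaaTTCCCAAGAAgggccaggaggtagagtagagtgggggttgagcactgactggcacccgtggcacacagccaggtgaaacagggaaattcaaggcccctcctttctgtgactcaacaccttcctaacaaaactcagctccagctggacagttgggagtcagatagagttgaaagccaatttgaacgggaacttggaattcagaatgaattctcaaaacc
Cish: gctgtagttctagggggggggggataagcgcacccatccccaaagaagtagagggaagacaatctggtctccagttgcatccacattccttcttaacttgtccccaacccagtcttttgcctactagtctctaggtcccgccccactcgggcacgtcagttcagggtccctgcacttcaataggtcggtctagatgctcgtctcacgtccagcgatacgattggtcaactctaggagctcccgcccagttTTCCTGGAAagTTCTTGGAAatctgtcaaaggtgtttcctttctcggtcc
Socs3: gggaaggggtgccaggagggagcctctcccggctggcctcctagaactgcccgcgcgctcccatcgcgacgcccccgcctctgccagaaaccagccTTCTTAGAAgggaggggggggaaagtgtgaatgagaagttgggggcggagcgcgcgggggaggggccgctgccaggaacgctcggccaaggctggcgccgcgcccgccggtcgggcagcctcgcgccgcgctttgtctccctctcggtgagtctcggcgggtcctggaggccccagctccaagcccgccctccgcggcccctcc
The letters GGNGGCAG, the core of the CTCF motif, were found on either strand in 1 gene, Il4i1, and in 12.6% of all windows. A match is a run of letters in a window, and binding was not measured here.

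Fcer2a (ENSMUSG00000005540, chr8:3681737-3694175, GRCm38, minus strand) carried the largest genotype difference of the 10 genes in CD3/CD28 cultures. It was at 173, 164 and 185 CPM in the CTCFfl/+ libraries and at 45.3, 34.1 and 34.8 CPM in the CTCFfl/fl libraries. Every CTCFfl/fl library was thus below every CTCFfl/+ library, and the mean fell from 174 ± 10.6 to 38.1 ± 6.31 CPM (SD, n = 3), to 21.9% of the control level. The log2 fold change was -2.19 (SE 0.11), the 7th lowest of 12070 genes tested. With LPS/IL4 it was at 116, 89.7 and 65.5 CPM in CTCFfl/+ and at 111, 68.8 and 139.5 CPM in CTCFfl/fl cells. Here the genotypes overlapped, with a log2 fold change of 0.22 (SE 0.21, 95% interval -0.24 to 0.67), and without CTCFfl/fl library 3 it was -0.01. The highest and the lowest LPS/IL4 library differed 2.13-fold.

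Il4i1 (chr7:44816387-44840809, plus strand) encodes a secreted oxidase of aromatic amino acids and was the second IL4-induced gene. In CD3/CD28 cultures it was at 643, 677 and 664 CPM in CTCFfl/+ and at 390.3, 395 and 366 CPM in CTCFfl/fl libraries. The libraries of a genotype lay close together, and the mean fell from 661 ± 16.9 to 384 ± 15.6 CPM (SD, n = 3), a log2 fold change of -0.79 (SE 0.06). With LPS/IL4 it was at 605, 415 and 482 CPM in CTCFfl/+ and at 704, 513 and 617 CPM in CTCFfl/fl cells, which overlapped, with a log2 fold change of 0.29 (SE 0.13) that was 0.17 without CTCFfl/+ library 2 and 0.19 without CTCFfl/fl library 1. The GENCODE model of Il4i1 shares 3423 exon bases, 83.9% of its exons, with Tbc1d17 on the opposite strand, and the kit does not mark strand. Tbc1d17 itself, a GTPase-activating protein for Rab GTPases, was at 26.7 CPM in CTCFfl/+ and 33.6 CPM in CTCFfl/fl cells of the CD3/CD28 cultures (log2 fold change 0.33, limma adjusted p = 0.022), the direction opposite to that of Il4i1.

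**Figure D1:**
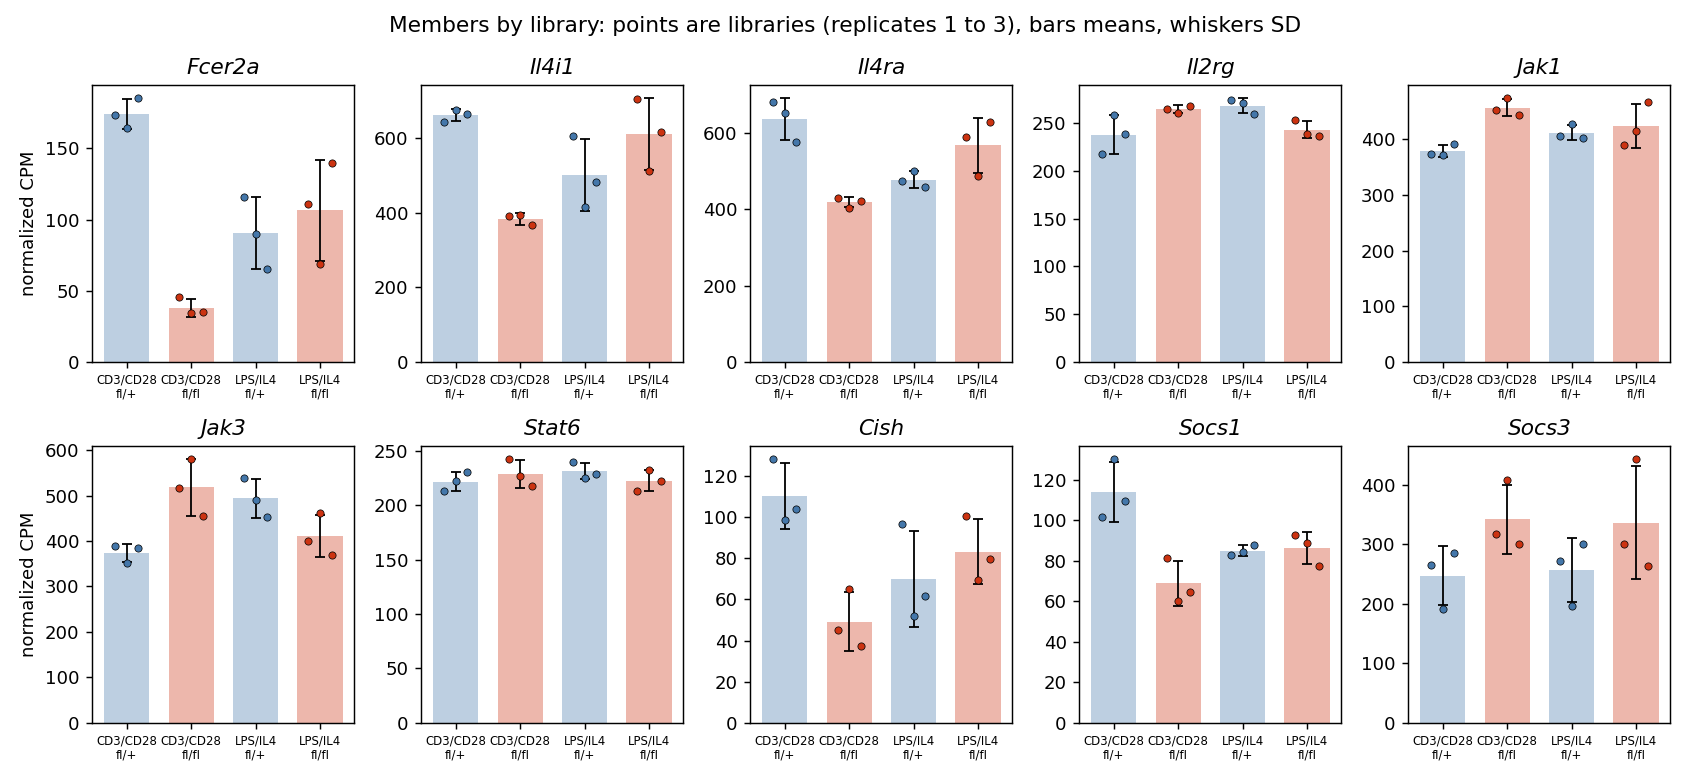
Normalized CPM of the 10 genes (vertical axes, linear, each from 0) in the 12 libraries, by culture and genotype (fl/+ is CTCFfl/+ and fl/fl is CTCFfl/fl). Points are libraries, bars means and whiskers SDs of 3 libraries. In CD3/CD28 cultures the 3 CTCFfl/fl points of Fcer2a lie between 34.1 and 45.3 CPM, all below the CTCFfl/+ points. Levels are not comparable between cultures.

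Of the receptor chains, Il4ra, the chain that binds IL4, was lower in CTCFfl/fl cells of the CD3/CD28 cultures, and Il2rg, the common γ chain, was not. Il4ra (chr7:125552120-125579474, plus strand) was at 682, 651 and 576 CPM in CTCFfl/+ and at 429.7, 404 and 421 CPM in CTCFfl/fl libraries. No library overlapped, and the mean fell from 636 ± 54.6 to 418 ± 13.3 CPM (SD, n = 3), a log2 fold change of -0.60 (SE 0.07). With LPS/IL4 Il4ra was at 474, 500.5 and 458 CPM in CTCFfl/+ and at 588, 486 and 627 CPM in CTCFfl/fl cells. Of the CTCFfl/fl libraries, 2 were above all controls and 1 was among them, and the log2 fold change was 0.24 (SE 0.10). An antisense RNA, Gm44876, shares 571 bases with Il4ra and is not in the table.

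Il2rg (chrX:101264378-101268255, minus strand) differed little between the genotypes. In CD3/CD28 cultures it was at 217, 258 and 238 CPM in CTCFfl/+ and at 265, 260.0 and 268 CPM in CTCFfl/fl libraries. The libraries did not overlap, but by a margin that was small beside the spread of the controls, and the log2 fold change of 0.16 (SE 0.07), which was 0.093 without CTCFfl/+ library 1, did not pass the threshold. With LPS/IL4 the values of Il2rg were 275, 270.4 and 259 CPM in CTCFfl/+ and 254, 239 and 237 CPM in CTCFfl/fl cells. It was the only one of the 10 genes whose genotypes did not overlap with LPS/IL4, with a log2 fold change of -0.14 (SE 0.08) that did not pass the threshold. Il2rg shares 728 exon bases, 30.5% of its exons, with the same-strand gene model Gm20489, so reads could be split between both.

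Both receptor kinases were higher in CTCFfl/fl cells of the CD3/CD28 cultures. Jak1 (chr4:101152367-101265282, minus strand) was at 374, 371 and 391 CPM in CTCFfl/+ and at 452, 474 and 444 CPM in CTCFfl/fl libraries. The mean rose from 379 ± 10.9 to 457 ± 15.3 CPM (SD, n = 3) with no overlap, a log2 fold change of 0.27 (SE 0.06). With LPS/IL4 Jak1 was at 406, 427 and 402 against 389.7, 415 and 467 CPM, and the genotypes overlapped, with a log2 fold change of 0.04 (SE 0.09).

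Jak3 (chr8:71676296-71690575, plus strand) was at 389, 352 and 384 CPM in CTCFfl/+ and at 518, 581 and 455 CPM in CTCFfl/fl libraries of the CD3/CD28 cultures. The lowest CTCFfl/fl library was above the highest control, and the mean rose from 375 ± 19.8 to 518 ± 62.9 CPM (SD, n = 3), a log2 fold change of 0.46 (SE 0.09). With LPS/IL4 Jak3 was at 538, 490.3 and 454 CPM in CTCFfl/+ and at 401, 461 and 369.6 CPM in CTCFfl/fl cells. There the estimate had the opposite sign, -0.27 (SE 0.10), with CTCFfl/fl library 2 inside the control range, and it did not pass the threshold. Neither kinase passed the threshold in CD3/CD28 cultures when limma was fitted without its intensity trend. Jak3 shares 404 exon bases, 7.55% of its exons, with the same-strand gene Insl3, so reads could be split between both. Insl3 was at 20.3 CPM in CTCFfl/+ and 26.6 CPM in CTCFfl/fl cells of the CD3/CD28 cultures (log2 fold change 0.36, limma adjusted p = 0.14).

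Stat6 (chr10:127642986-127660957, plus strand), the transcription factor itself, was the member with the smallest difference in CD3/CD28 cultures. It was at 213, 222 and 231 CPM in CTCFfl/+ and at 243, 227 and 217 CPM in CTCFfl/fl libraries. The genotypes overlapped, and the log2 fold change was 0.04 (SE 0.06, 95% interval -0.10 to 0.19). With LPS/IL4 Stat6 was at 239, 225 and 229 against 213, 232 and 223 CPM, and the log2 fold change was -0.06 (SE 0.08, 95% interval -0.23 to 0.12). Phosphorylated STAT6 was not measured.

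The feedback inhibitors did not share a direction: Cish and Socs1 were lower in CTCFfl/fl cells of the CD3/CD28 cultures and Socs3 was higher. Cish (chr9:107296026-107302784, plus strand), an inhibitor best known as a STAT5 target, was at 129, 98.5 and 104 CPM in CTCFfl/+ and at 45.3, 65.2 and 37.3 CPM in CTCFfl/fl libraries. No library overlapped, and the mean fell from 110.4 ± 16.0 to 49.3 ± 14.4 CPM (SD, n = 3), a log2 fold change of -1.19 (SE 0.17), the second largest difference after Fcer2a among the 10 genes. With LPS/IL4 Cish was at 96.6, 52.1 and 61.8 CPM in CTCFfl/+ and at 101, 69.6 and 79.7 CPM in CTCFfl/fl cells, which overlapped (log2 fold change 0.28, SE 0.18). Leaving out 1 library at a time moved this from 0.091 without CTCFfl/+ library 2 to 0.53 without CTCFfl/+ library 1. The antisense gene Gm17041 shares 479 bases with Cish, and its value moved with that of Cish, from 7.23 to 2.85 CPM in CD3/CD28 cultures (log2 fold change -1.24, limma adjusted p = 0.014). Reads of both cannot be told apart without strand.

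Socs1 (chr16:10782240-10785536, minus strand), which inhibits JAK kinases directly, was at 102, 130.4 and 109.7 CPM in CTCFfl/+ and at 81.5, 60.3 and 64.8 CPM in CTCFfl/fl libraries of the CD3/CD28 cultures. No library overlapped, and the mean fell from 114 ± 14.8 to 68.9 ± 11.1 CPM (SD, n = 3), a log2 fold change of -0.73 (SE 0.12). With LPS/IL4 Socs1 was at 82.9, 84.1 and 88.0 against 92.7, 88.9 and 77.4 CPM, with a log2 fold change of 0.02 (SE 0.09, 95% interval -0.18 to 0.22).

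Socs3 (chr11:117966079-117970047, minus strand), an inhibitor best known from receptors that signal through STAT3, was at 265, 191 and 286 CPM in CTCFfl/+ and at 318, 409 and 299.6 CPM in CTCFfl/fl libraries of the CD3/CD28 cultures. The lowest CTCFfl/fl library was just above the highest control, and the log2 fold change was 0.48 (SE 0.15). It passed the threshold in the fit used here but not under 11 of 16 alternatives, among them edgeR, DESeq2, the replicate block and leaving out CTCFfl/+ library 1 or 2 or CTCFfl/fl library 1 or 2. Without CTCFfl/+ library 2 the log2 fold change was 0.30. With LPS/IL4 Socs3 was at 272, 196 and 300.5 against 301, 443 and 264 CPM, with overlap and a log2 fold change of 0.38 (SE 0.17), which was 0.20 without CTCFfl/+ library 2 and 0.16 without CTCFfl/fl library 2. In both cultures library 2 was the lowest of CTCFfl/+ and the highest of CTCFfl/fl.

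Counted together in CD3/CD28 cultures, 8 of the 10 genes passed the threshold of an adjusted p under 0.05, which 18.6% of all 12070 genes tested did. Of these, 5 were lower (8.76% of all genes were called lower) and 3 higher (9.88% called higher). All libraries of one genotype lay above those of the other in 9 of the 10, all but Stat6, and in 39.6% of all genes. The median log2 fold change of the 10 genes was -0.28, against 0.01 over all genes tested, and the median size of the change was 0.54 against 0.18. Since the genes were chosen with these differences known, nothing further is read from the counts. The calls of Fcer2a, Il4i1, Il4ra, Cish and Socs1 were kept under all 16 alternatives.

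With LPS/IL4, where IL4 was added to the medium, 0 of the 10 genes passed the threshold with limma, edgeR or DESeq2, as did 0.0334% of all 11962 genes with limma. At an unadjusted p under 0.05 with limma there were 4 of the 10, and 796 of all 11962 genes. Unadjusted 95% intervals excluded 0 for Il4i1 (0.008 to 0.58), Il4ra (0.026 to 0.45), Socs3 (0.016 to 0.74) and Jak3 (-0.48 to -0.056). Libraries of both genotypes were fully separated in 1 of the 10 and in 11% of all genes. The median log2 fold change was 0.13, and the estimates ran from -0.27 for Jak3 to 0.38 for Socs3. All 5 genes that were lower in CTCFfl/fl cells of the CD3/CD28 cultures had estimates above 0 here, although the sign for Fcer2a and for Socs1 turned when single libraries were left out.

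**Figure D2:**
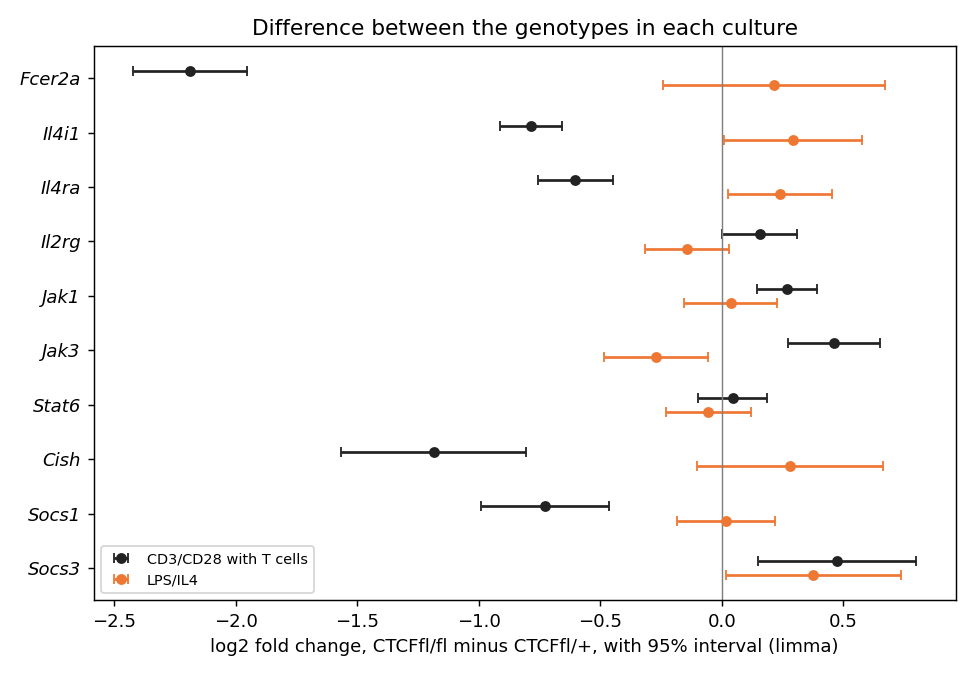
Log2 fold change of CTCFfl/fl minus CTCFfl/+ cells (horizontal axis) for the 10 genes, with 95% intervals from limma, in CD3/CD28 (black) and LPS/IL4 cultures (orange). The black points of Fcer2a, Cish, Il4i1, Socs1 and Il4ra lie between -2.19 and -0.60, whereas the orange points of all 10 genes lie between -0.27 and 0.38.

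The difference between both genotype effects was estimated in a fit of all 12 libraries, as the effect in CD3/CD28 minus that in LPS/IL4 cultures. It was -2.41 (SE 0.31) for Fcer2a, -1.46 (SE 0.31) for Cish, -1.08 (SE 0.17) for Il4i1, -0.84 (SE 0.13) for Il4ra and -0.74 (SE 0.16) for Socs1. It was 0.73 (SE 0.14) for Jak3. These 6 of the 10 passed the threshold, which 7.57% of 11847 genes did, and Cish and Socs1 did not pass it without the intensity trend. The difference was 0.30 (SE 0.10) for Il2rg, 0.23 (SE 0.10) for Jak1, 0.10 (SE 0.09) for Stat6 and 0.10 (SE 0.28) for Socs3, none of which passed in this fit, although Il2rg did with DESeq2 and without CTCFfl/+ library 2 of the CD3/CD28 cultures. Culture and batch cannot be told apart in this comparison.

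Levels were compared between genes only per kilobase of exon. The length used was the union of all annotated exons of a gene, which can exceed that of a transcript and then understates the level. For Cish it was 6.42 kb, most of the gene at chr9:107296026-107302784. For Il4i1 83.9% of the length is shared with Tbc1d17. In CTCFfl/+ cells of the CD3/CD28 cultures the order was Il4i1 at 162 CPM per kb, Il4ra at 106, Il2rg at 99.6, Socs3 at 85.5, Jak3 at 70.0, Fcer2a at 56.4, Jak1 at 52.4, Stat6 at 50.4, Socs1 at 39.2 and Cish at 17.2 CPM per kb. The ranges of the 3 libraries overlapped between Il4ra and Il2rg, Il2rg and Socs3, Socs3 and Jak3, Fcer2a and Jak1, and Jak1 and Stat6, so these neighbours in the order were not separated.

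Other genes of the pathway were taken from 7 lists written by role, without the 10 genes. Like the 10 genes, the lists were written with earlier results of these data known. Their shares and adjusted p-values are therefore a description and no independent support. Of 78 listed genes 71 were in the table and 66 were tested in CD3/CD28 cultures, where 13 were higher and 8 lower in CTCFfl/fl cells. That is 31.8% of those tested, beside 18.6% of all genes, and their median log2 fold change was -0.02, beside 0.01. With LPS/IL4 0 of the 66 tested were called with limma or edgeR, 10 were at an unadjusted p under 0.05 with limma (796 of all 11962 genes), and DESeq2 called 1 (37 of all genes). That gene was Cd86, a costimulatory ligand of CD28, at -0.54 (DESeq2 adjusted p = 0.0094).

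Of the genes on the list of IL4-induced genes, 4 of 13 tested were lower and 1 higher (median log2 fold change -0.19). Ighg1, the constant region of IgG1 to which IL4 directs switching, was at 406, 362 and 386 CPM in CTCFfl/+ and 253, 265 and 228 CPM in CTCFfl/fl libraries (log2 fold change -0.63, SE 0.07, limma adjusted p = 0.00061). Nfil3, a bZIP transcription factor, was at 245, 197 and 196 against 129, 127 and 95.9 CPM (log2 fold change -0.86, SE 0.12, limma adjusted p = 0.0015). Ccl22, a chemokine that binds CCR4, was at 151, 165 and 121 against 96.8, 73.2 and 92.3 CPM (log2 fold change -0.73, SE 0.13, limma adjusted p = 0.0040). The genotypes did not overlap in any of these. Cd86 went the other way, from 88.4, 87.5 and 102 to 164, 181 and 133 CPM (log2 fold change 0.77, SE 0.11, limma adjusted p = 0.0016). The genotype effect differed between the cultures for Cd86 (1.31, limma adjusted p = 0.0015), Nfil3 (-1.10, 0.0059), Ccl22 (-1.03, 0.0059) and Ighg1 (-0.75, 0.032). The fourth gene called lower was Tfrc, the transferrin receptor, which is outside the rule for named genes (log2 fold change -0.48, limma adjusted p = 0.0070, but 0.0527 without the intensity trend).

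The list of partners and regulators of CD23 held 3 higher and 1 lower gene of 10 tested (median log2 fold change 0.20). Itgam, the α chain of an integrin that binds CD23 and also a myeloid marker, was at 4.02, 7.20 and 4.40 CPM in CTCFfl/+ and 14.5, 22.8 and 20.8 CPM in CTCFfl/fl libraries (log2 fold change 1.81, SE 0.22, limma adjusted p = 0.00087). Cr2, which encodes the CD23 ligand CD21, was at 8.76, 8.97 and 8.51 against 17.6, 22.4 and 14.9 CPM (log2 fold change 1.00, SE 0.15, limma adjusted p = 0.0022). Itgb2, the β chain that pairs with Itgam, was at 158, 157 and 155 against 210.4, 211 and 185 CPM (log2 fold change 0.37, SE 0.07, limma adjusted p = 0.0054). Rbpj, the DNA-binding partner of Notch, was at 113, 89.3 and 88.7 against 68.1, 58.5 and 59.0 CPM (log2 fold change -0.64, SE 0.10, limma adjusted p = 0.0030). Adam10, the protease that sheds CD23, gave a log2 fold change of -0.04 (SE 0.08, limma adjusted p = 0.75).

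Of the 12 myeloid markers, which include Itgam, 7 were in the table and 6 tested, of which Itgam, Tyrobp, Ctss and Cst3 were higher in CTCFfl/fl cells of the CD3/CD28 cultures. The other two were not called with limma, Cd68 at 9.01 against 12.1 CPM (log2 fold change 0.42, SE 0.17, limma adjusted p = 0.10) and Fcgr3 at 1.27 against 0.874 CPM (-0.32, SE 0.37, limma adjusted p = 0.58). The 7 summed to 213 to 247 CPM in CTCFfl/+ and 293 to 304 CPM in CTCFfl/fl libraries. Lyz2, Csf1r, Cd14, S100a8 and S100a9 were not analysed here. Of 13 T cell markers tested 3 were higher (Cd3g, Skap1 and Ctla4) and 1 lower (Thy1), with sums over the 19 listed of 178 to 200.04 against 191 to 225 CPM. Of the 10 B cell markers 5 were higher (Cd79a, Cd79b, Cd22, Blk and Ptprc). The part of other cell types in the results above was not tested, and a change in the share of cells cannot be told apart from one in RNA per cell.

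Among other receptor chains 4 of 15 tested were higher and 2 lower (median log2 fold change 0.05). Il10ra, the ligand-binding chain for IL10, was at 92.3, 112 and 98.9 CPM in CTCFfl/+ and 155, 162 and 143 CPM in CTCFfl/fl libraries (log2 fold change 0.60, SE 0.08, limma adjusted p = 0.0014). The chains of the interferon γ receptor went in opposite directions. Ifngr1 was at 26.4, 33.5 and 32.9 against 50.4, 49.8 and 44.6 CPM (0.64, SE 0.11, limma adjusted p = 0.0032), and Ifngr2 was at 63.0, 72.4 and 61.9 against 50.8, 49.4 and 51.1 CPM (-0.38, SE 0.08, limma adjusted p = 0.010). Ifnar1, a chain of the type I interferon receptor, gave 0.33 (SE 0.08, limma adjusted p = 0.014), a call lost without the intensity trend (0.0642) and without CTCFfl/+ library 1 or 2 (0.0533 and 0.0573). The remaining calls, outside the rule for named genes, were Il10rb (0.34, limma adjusted p = 0.041), lost under 8 of 16 alternatives, and Il2ra (-0.49, limma adjusted p = 0.031), lost under 6 of 16, with p of 0.0516 with the replicate block.

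Of the other JAK and STAT genes 2 of 8 tested were higher and 1 lower (median log2 fold change 0.07). Stat3 was at 448, 439 and 467 CPM in CTCFfl/+ and 585, 573 and 536 CPM in CTCFfl/fl libraries (log2 fold change 0.32, SE 0.06, limma adjusted p = 0.0054). Jak2 was at 118, 112 and 108 against 84.1, 92.5 and 83.3 CPM (-0.37, SE 0.07, limma adjusted p = 0.0062). Tyk2 gave 0.29 (SE 0.07, limma adjusted p = 0.017), lost without the intensity trend (0.0539) and without CTCFfl/+ library 1 or 3 (0.0662 and 0.071). The kinase family was thus not uniform, with Jak1, Jak3 and Tyk2 higher and Jak2 lower.

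Of 10 tested adaptors and phosphatases of the IL4 receptor 3 were higher and 0 lower with limma, also with 0 lower at an unadjusted p under 0.05 and with edgeR or DESeq2 (median log2 fold change -0.01). Pik3cd, the δ catalytic subunit of PI3-kinase, was at 634, 624 and 631 CPM in CTCFfl/+ and 829.7, 837 and 754 CPM in CTCFfl/fl libraries (log2 fold change 0.36, SE 0.06, limma adjusted p = 0.0035). Ptpn1, a phosphatase that acts on JAK kinases, gave 0.30 (SE 0.06, limma adjusted p = 0.0075, but 0.052 without the intensity trend), and Irs2, an adaptor that docks on IL4Rα, gave 0.43 (SE 0.13, limma adjusted p = 0.038). The call of Irs2 was lost under 7 of 16 alternatives, among them without CTCFfl/+ library 1 or 3 (0.134 and 0.109) and without CTCFfl/fl library 2 or 3 (0.0723 and 0.0961). Of the 9 other SOCS and PIAS inhibitors tested, 0 were called with limma, edgeR or DESeq2 and 1 was at an unadjusted p under 0.05 with limma (median log2 fold change -0.08). Socs2 was at 54.4, 31.3 and 42.2 against 44.0, 48.4 and 35.6 CPM (log2 fold change 0.03, SE 0.18, limma adjusted p = 0.93).

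**Figure D3:**
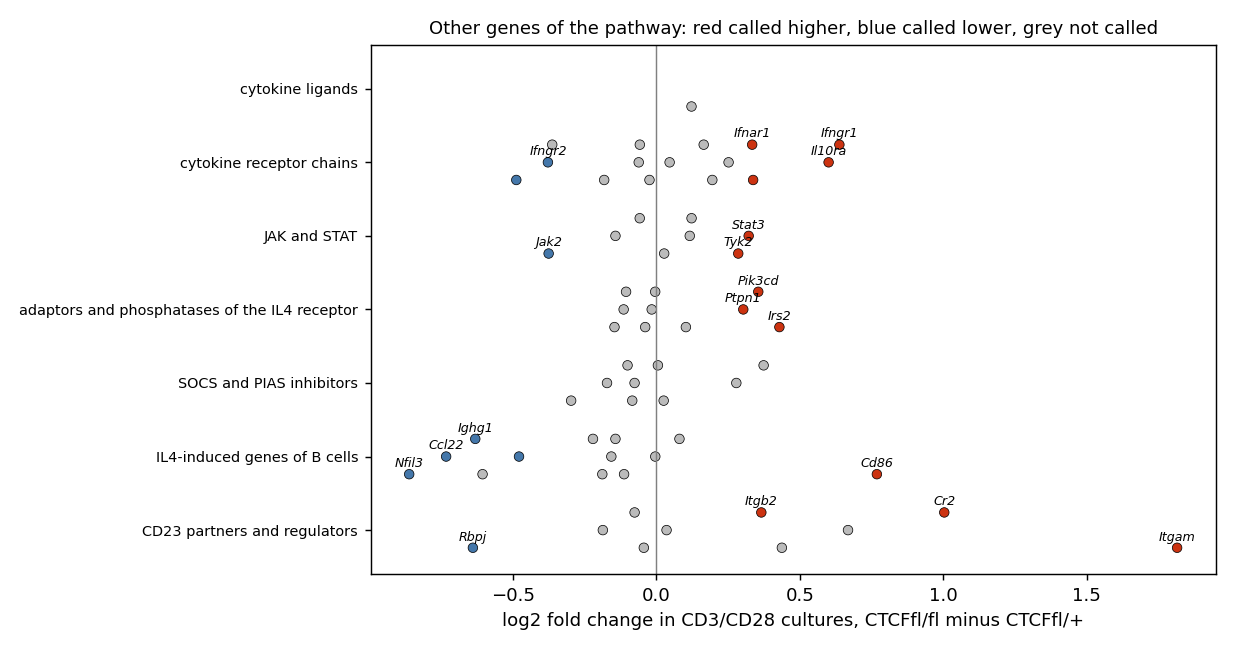
Log2 fold change of CTCFfl/fl minus CTCFfl/+ cells in CD3/CD28 cultures (horizontal axis) for the 66 tested genes of 7 pathway lists (vertical axis, points spread within a list for legibility). Red genes were called higher, blue genes lower and grey genes not called with limma, and the genes named by rule are labelled. Itgam, at 1.81, lies farthest to the right and Nfil3, at -0.86, farthest to the left.

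Of the cytokine ligands on the list 5 of 10 were in the table. Il10 was at 3.88, 3.42 and 2.15 CPM in CTCFfl/+ and 3.73, 2.92 and 3.54 CPM in CTCFfl/fl libraries (log2 fold change 0.12, SE 0.24, limma adjusted p = 0.77). Il13, Il21, Il6 and Ifng were under the filter in CD3/CD28 cultures, where Il6 reached at most 1.54 CPM and Ifng 0.561 CPM in a library, Il13 at most 0.118 CPM, and Il21 was at 0 in all 6. Il2, Il4, Il7, Il9 and Il15 were not analysed here. These are RNA values of the sorted B cells, and cytokines in the medium of either culture, including any made by the T cells, were not measured here.

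Of the genes that start within 250 kb of Fcer2a, 8 were tested in CD3/CD28 cultures, all on one side of it, and 3 were higher and 0 lower in CTCFfl/fl cells with limma, also with 0 lower at an unadjusted p under 0.05. The nearest, Trappc5, starts 17.9 kb away and gave a log2 fold change of -0.12 (SE 0.08, limma adjusted p = 0.33). Stxbp2, at 63.2 kb, gave 0.22 (limma adjusted p = 0.026), Zfp358, at 201 kb, 0.59 (0.010) and Pex11g, at 226 kb, 0.56 (0.030). Mcoln1 (0.21), Pnpla6 (0.13), Xab2 (0.04) and Pet100 (-0.04) were not called. Around all 10 genes together, 93 neighbours were tested, of which 13 were called higher and 7 lower, beside 9.88% and 8.76% of all genes. Il21r, which starts 51.3 kb from Il4ra and encodes another receptor chain that pairs with the common γ chain, was at 519, 513 and 530.4 CPM in CTCFfl/+ and 616, 585 and 552 CPM in CTCFfl/fl libraries (log2 fold change 0.17, SE 0.06, limma adjusted p = 0.075).

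**Figure D4:**
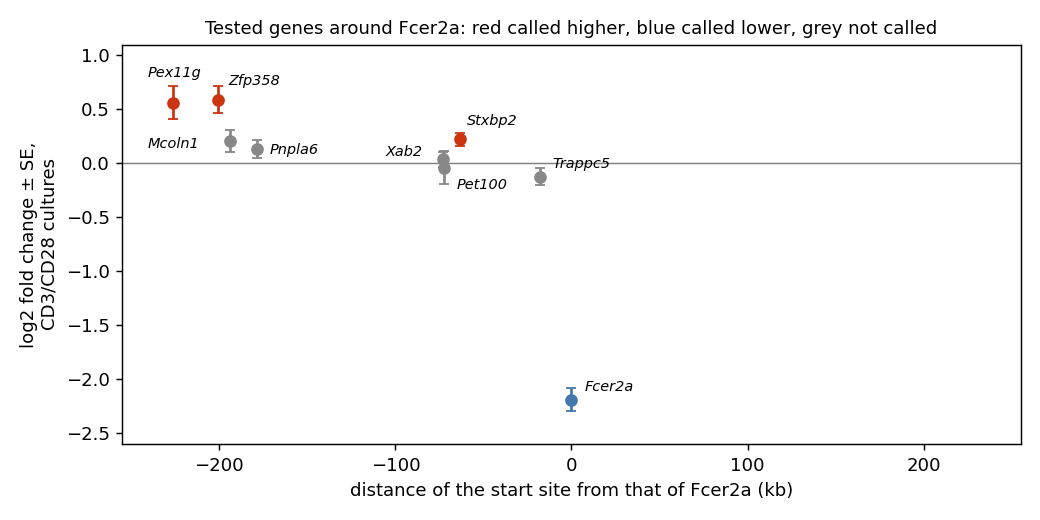
Log2 fold change of CTCFfl/fl minus CTCFfl/+ cells in CD3/CD28 cultures (vertical axis, whiskers SE) against the distance of a gene's start from that of Fcer2a (horizontal axis, kb), for Fcer2a and the 8 tested genes within 250 kb. Red genes were called higher, blue lower and grey not called with limma. Fcer2a, at -2.19, lies below all 8 neighbours, which lie between -0.12 and 0.59.

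The genes most like Fcer2a were those with the highest Pearson correlation of log2(CPM + 0.5) over the 12 libraries, among 9415 genes. These were Parm1 (r = 0.97), Slc15a3 (0.96), Otulin (0.96), Zfp280b (0.95) and Stau2 (0.94). In CD3/CD28 cultures Parm1 went from 19.3 to 2.60 CPM, Slc15a3, a transporter of endosomes and lysosomes, from 68.6 to 20.1 CPM, and Otulin, a deubiquitinase of linear ubiquitin chains, from 172 to 106 CPM. The most opposite were Unc119b (-0.97), Syk (-0.96), Fcgr2b (-0.95), Susd3 (-0.95) and Ccdc97 (-0.94). Syk, the kinase next to the B cell receptor, went from 617 to 975 CPM, and Fcgr2b, the inhibitory receptor for IgG, from 113 to 216 CPM. The 12 libraries share the genotype difference of the CD3/CD28 cultures, where all 10 of these genes were called, so the likeness is a description over libraries that are not independent of it.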

How the data were processed

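RNA sequencing of 12 libraries of sorted hCD2+ B cells, 3 for each genotype and culture, was analysed. Per the labels and the methods of the study, poly(A) RNA was prepared with a kit that does not mark strand, and reads of 61 bases were obtained with CASAVA 1.8, trimmed with cutadapt, quantified with RSEM 1.17 on GRCm38 and normalized with edgeR. The authors deposited normalized CPM of 12699 genes in 1 table, and 12586 were named from GENCODE M21. In each library the CPM were multiples of its lowest nonzero value (100% of values, tolerance 0.01 read). This value was taken as the worth of 1 read, which gave recovered reads. If the values were adjusted before deposit, these are adjusted counts and not the reads of a library. Il21 and Trbc2 stood at exactly 1 such count in every LPS/IL4 library, and the cause was not tested. If they are reads, the deeper LPS/IL4 libraries are more precise for genes with few reads.

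Log2(CPM + 0.5) was tested with limma 3.58.1 (R 4.3.3, intensity trend) for genes that reached 1 CPM in 3 or more of the 6 libraries, with Benjamini-Hochberg adjustment over all genes tested and a threshold of 0.05. The cultures were fitted separately, and the interaction of genotype and culture in all 12 libraries together. Fold changes are on the log2(CPM + 0.5) scale and understate changes of low genes. With edgeR 4.0.16 on the recovered reads, 2240 genes were called in CD3/CD28 cultures, 4 with LPS/IL4 and 797 for the interaction. DESeq2 1.42.0, other pseudocounts (0.1 and 1), filters and scalings, a replicate block and leaving out each library were the alternatives. The fits were tested on simulated data.

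The members and lists were chosen with earlier results of these data known. Named were every member, up to 4 called genes of each list with the smallest p, the ligands, the tested genes within 250 kb of Fcer2a, and the 5 genes most and least correlated with it, without predicted genes and with a mean of 5 CPM or more. Promoters are RefSeq windows on GRCm38.p6.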

Additional observations from a re-analysis of the deposited data

Results flagged for a closer look

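For 6 of the 10 genes the genotype effect in CD3/CD28 cultures differed from that in LPS/IL4 cultures, by an interaction term over all 12 libraries. The difference on the log2 scale was -2.41 for Fcer2a, -1.08 for Il4i1, -0.84 for Il4ra, -1.46 for Cish, -0.74 for Socs1 and 0.73 for Jak3. For each the estimates in both cultures had opposite signs, although the LPS/IL4 estimates of Fcer2a and Socs1 turned when single libraries were left out. Opposite signs were also seen in other genes, such as Nfil3 and Cd86, and the share of all genes was not counted. Over all genes 7.57% passed the same threshold, and Cish and Socs1 did not pass it without the intensity trend. The genes were chosen with both contrasts known, and each culture was a batch of its own, so these are descriptions.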

How the results depend on the processing

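The CD3/CD28 cultures gave 2250 called genes, LPS/IL4 4 and the interaction 897. Without the intensity trend these became 1092, 1 and 388, and the members called in CD3/CD28 cultures 5 in place of 8. In LPS/IL4 cultures 7 genes were called with a pseudocount of 1, 2 without a filter on low values and 37 with DESeq2. Leaving out 1 library at a time gave 1005 to 2321, 2 to 75 and 405 to 989 called genes. The CD3/CD28 count moved by over 1.5 times without CTCFfl/+ library 1, 2 or 3 (1181, 1415 and 1005). The LPS/IL4 count did so without CTCFfl/+ library 1, 2 or 3 (10, 2 and 75) and CTCFfl/fl library 1 or 2 (10 and 40). The interaction count did so without CTCFfl/+ library 1 or 3 (458 and 405) or CTCFfl/fl library 2 (475) of the CD3/CD28 cultures and CTCFfl/fl library 3 of the LPS/IL4 cultures (509). The log2 fold change with LPS/IL4 then ran from -0.0078 to 0.50 for Fcer2a, from -0.034 to 0.096 for Jak1, from -0.034 to 0.094 for Socs1, from 0.091 to 0.53 for Cish, from 0.17 to 0.44 for Il4i1, from 0.16 to 0.53 for Socs3, and from -0.086 to -0.024 for Stat6. In CD3/CD28 cultures it ran from 0.30 to 0.59 for Socs3, from 0.093 to 0.22 for Il2rg and from 0.0018 to 0.081 for Stat6, and the interaction from -0.076 to 0.32 for Socs3 and from 0.057 to 0.14 for Stat6. The cause of these shifts was not tested. Pairing was looked at through the deviation of each library from the mean of its group, in log2(CPM + 0.5) over 9905 genes. Deviations of same-numbered libraries of a culture correlated at 0.05, -0.13 and -0.01 in CD3/CD28 and at 0.39, 0.14 and -0.12 in LPS/IL4 cultures. For libraries of unlike number and genotype the correlations ran from -0.11 to 0.11 in CD3/CD28 and from -0.35 to 0.29 in LPS/IL4 cultures. The deviations of the 3 libraries in a group cancel out, which constrains these correlations. These values do not settle whether libraries of the same number were paired. With the replicate block 1870, 18 and 604 genes were called, and 7 members in CD3/CD28 cultures, and of the members and pathway genes named above, Socs3, Il2ra and Il10rb lost their call. Il10rb was then at adjusted p = 0.0749. With 3 libraries a group, the wide spread of Fcer2a and Cish limits what LPS/IL4 cultures can show.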
